A study of Mus musculus with 6 samples.

Results

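Mast cells were followed in the inguinal adipose tissue (iAT) of mice by 10 genes that mark connective tissue mast cells, chosen by symbol: the granule proteases *Cma1*, *Mcpt4*, *Tpsb2*, *Tpsab1* and *Cpa3*, the receptor genes *Kit*, *Ms4a2* and *Fcer1a*, the histamine-forming enzyme *Hdc* and the transcription factor *Gata2*. All 10 were found among the 19831 genes listed. The study compared whole iAT at postnatal day 6 between 3 wild-type samples and 3 samples with a knockout of *Npffr1*, which encodes a receptor for neuropeptide FF. The mice were kept specific pathogen free and received no further treatment named in the labels, and the labels give neither strain, sex and litter nor the design of the knockout allele. The methods of the study describe its mice of this age as male C57BL/6, without naming these samples. Nothing says whether a sample was 1 mouse or a pool, so p-values measure the spread between these 6 samples.

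Mast cells arise from blood-forming precursors and mature in tissues, where stem cell factor, acting through the receptor tyrosine kinase KIT, keeps them alive. Connective tissue mast cells, the kind known from skin and adipose tissue, pack chymases, tryptases, carboxypeptidase A3 and histamine onto heparin in their granules and release them when an antigen cross-links IgE on the high-affinity receptor FcεRI. GATA2 and MITF are known regulators of their granule genes.

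The deposited table lists 1 value per genotype. The reads of each library were recovered from it as whole numbers, as described under the processing, for 14106 of 14256 genes with a mean of 5 to 2500 normalized reads (98.9%) and for all 10 mast cell genes. The libraries found in this way carry a genotype but no sample number, and are numbered here only to tell them apart. A normalized read is a read divided by the size factor of its library, and the 6 size factors lay between 0.916 and 1.04. The recovered reads added up to between 9039707 and 9934849 per library. Over all genes tested, Npffr1-KO library 3 differed most from the other libraries of its genotype, with a median absolute difference of 0.241 on the log2 scale, against 0.139 to 0.191 for the other 5. The labelled tissue was met by its adipocyte genes: by the deposited wild-type value per kilobase *Adipoq*, which encodes adiponectin, was above 99.8% and *Plin1*, which encodes the lipid droplet protein perilipin, above 99% of all listed genes. The targeted gene was too low to check the labels: *Npffr1* had 1, 0 and 5 reads in the wild-type libraries and none in any Npffr1-KO library.

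Most of the mast cell genes were lower in Npffr1-KO than in wild-type iAT. The levels of *Hdc*, *Mcpt4*, *Cpa3*, *Cma1* and *Tpsb2* in Npffr1-KO were 54.6% to 69.8% of wild-type, and those of *Gata2* and *Kit* were 72.1% and 79.7%. None of the 9 mast cell genes in the test across all genes passed an adjusted p of 0.05 (limma on log2(normalized reads + 0.5), two-sided, Benjamini-Hochberg over 14106 genes), although 7 of the 9 had an unadjusted p under 0.05, as did 2640 of all genes tested. In that test 0.276% of the genes were called lower and 0.291% higher in Npffr1-KO. With voom weights in place of the variance trend 0 of the 9 passed as well. With 5 of the 10 genes all 3 Npffr1-KO libraries lay below all 3 wild-type libraries, 4 of them among the 9 tested genes, and this held for 12.6% of all genes tested. An exact permutation test of 3 against 3 libraries cannot give a p below 0.10.

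**Figure D1:**
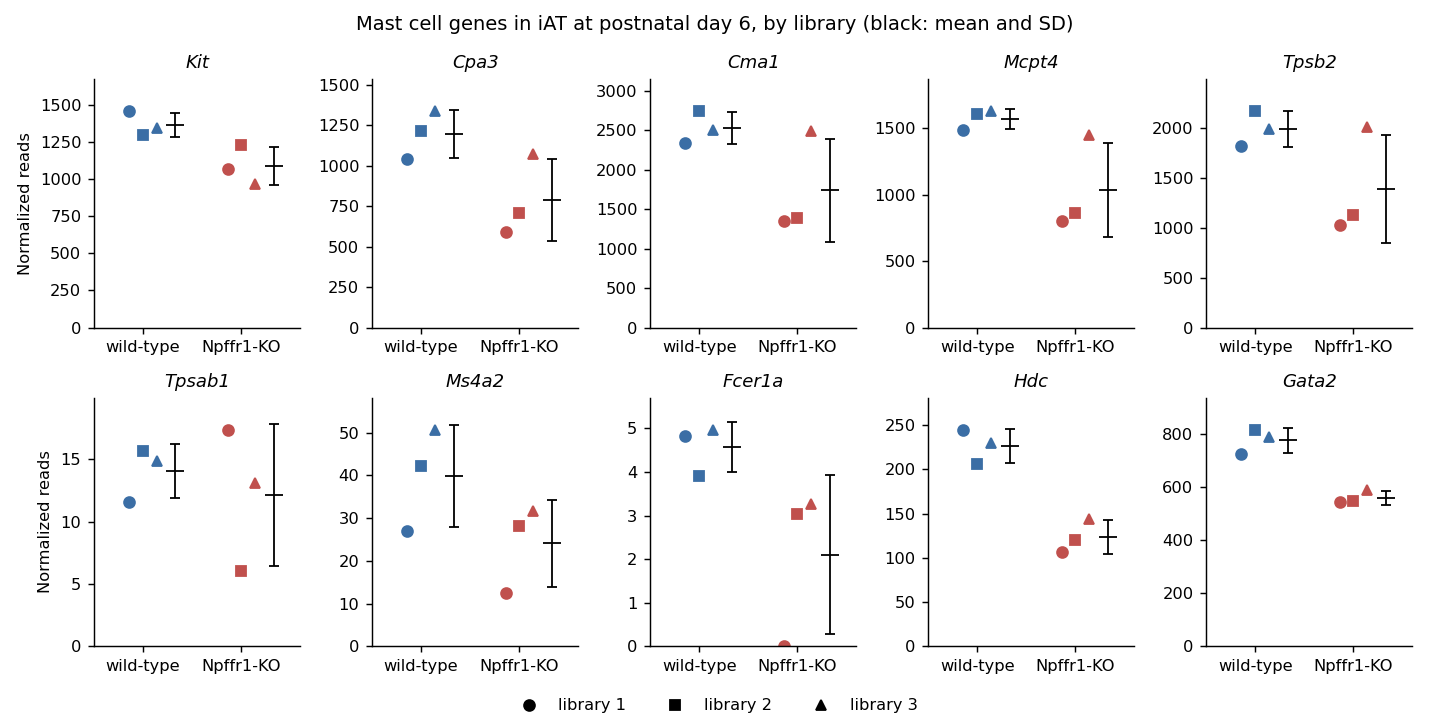
Normalized reads of the 10 mast cell genes (y axes, from 0) in each of the 3 wild-type (blue) and 3 Npffr1-KO (red) libraries, with the mean and SD of each genotype in black. For *Hdc* and *Gata2* all Npffr1-KO libraries lie below all wild-type libraries, while for *Cma1* and *Tpsb2* Npffr1-KO library 3 (triangle) lies within the wild-type range.

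The chymases come first among the proteases. *Cma1* (GeneID 17228) encodes mMCP-5, a chymase-like protease with elastase activity that is stored together with carboxypeptidase A3. It had 2343, 2740 and 2506 normalized reads in wild-type libraries 1 to 3, and 1351, 1384 and 2495 in Npffr1-KO libraries 1 to 3. Npffr1-KO libraries 1 and 2 averaged 54.1% of the wild-type mean and the third stood at 98.6%, so the groups overlapped. The mean was 2530 ± 200 (SD, n = 3) in wild-type and 1743 ± 652 (SD, n = 3) in Npffr1-KO, a log2 difference of -0.60 ± 0.20 (SE) with an adjusted p of 0.161.

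*Mcpt4* (GeneID 17227) encodes mMCP-4, the main chymotrypsin-like enzyme of connective tissue mast cells in mice. It had 1485, 1605 and 1625 normalized reads in wild-type, compared with 804, 864 and 1444 in Npffr1-KO. Every Npffr1-KO library lay below every wild-type library, the third by a small margin. *Mcpt4* had a log2 difference of -0.65 ± 0.19 (SE), with an adjusted p of 0.12.

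The tryptase gene *Tpsb2* (GeneID 17229) encodes mMCP-6, which is bound to heparin as a tetramer in the granule. It had 1818, 2170 and 1990 normalized reads in wild-type and 1031, 1132 and 2010 in Npffr1-KO. As with *Cma1*, Npffr1-KO library 3 lay among the wild-type libraries. Its log2 difference was -0.58 ± 0.21 (SE), with an adjusted p of 0.184.

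The second tryptase gene, *Tpsab1* (GeneID 100503895), encodes mMCP-7 and is known not to give a functional enzyme in C57BL/6 mice. The RefSeq annotation of the C57BL/6J assembly lists it as a transcribed pseudogene and as the direct neighbour of *Tpsb2* on chromosome 17. It had 11.6, 15.7 and 14.9 normalized reads in wild-type and 17.4, 6.06 and 13.1 in Npffr1-KO, where the libraries of both groups were mixed. The log2 difference was -0.31 ± 0.49 (SE), with an adjusted p of 0.774, and it turned to 0.11 without Npffr1-KO library 2. Whether the pseudogene state sets the level in these mice was not tested.

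*Cpa3* (GeneID 12873) encodes carboxypeptidase A3, an exopeptidase of the granule that trims peptides cut by the chymases. It had 1043, 1213 and 1336 normalized reads in wild-type and 589, 709 and 1075 in Npffr1-KO. Npffr1-KO libraries 1 and 2 were at 49.2% and 59.2% of the wild-type mean, and the third, at 89.8%, was above the lowest wild-type library. For *Cpa3* the log2 difference was -0.64 ± 0.19 (SE), with an adjusted p of 0.132.

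*Cma1* and *Mcpt4* lie in the chymase locus of chromosome 14, where the protein-coding genes that follow *Cma1* are *Cma2*, *Mcpt1*, *Mcpt2*, *Mcpt9*, *Mcpt4*, *Mcpt8* and *Ctsg*. Averaged over the 6 libraries, the 6 genes of this row other than *Mcpt4* had 0.823 to 13.5 normalized reads. As reads of near-identical stretches could be counted for either gene, the transcripts were compared: 5.38% of the 50-base words of the *Cma1* transcripts and 5.48% of those of *Mcpt4* also occur in transcripts of another gene, but none of those of *Tpsb2*, *Tpsab1* or *Cpa3*. For *Cma2* the share was 39.8%, mostly with *Mcpt9*, so the reads of these are uncertain.

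The receptor genes were less alike. *Kit* (GeneID 16590) encodes the receptor for stem cell factor, which melanocytes and blood progenitors also carry. It had 1455, 1296 and 1343 normalized reads in wild-type, against 1069, 1227 and 968 in Npffr1-KO. The groups did not overlap, and here Npffr1-KO library 3 was the lowest of all 6 libraries. The log2 difference was -0.33 ± 0.11 (SE), with an adjusted p of 0.151.

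*Ms4a2* (GeneID 14126) encodes the β chain of FcεRI, which amplifies the signal of the receptor. It had 27.0, 42.1 and 50.6 normalized reads in wild-type and 12.5, 28.3 and 31.6 in Npffr1-KO, and the lowest wild-type library was below 2 Npffr1-KO libraries. The log2 difference was -0.77 ± 0.42 (SE), with an adjusted p of 0.339. *Fcer1a* (GeneID 14125), which encodes the IgE-binding α chain, had 5, 4 and 5 reads in wild-type and 0, 3 and 3 reads in Npffr1-KO. With 20 reads in all it was below the minimum mean of 5 normalized reads and was not tested.

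*Hdc* (GeneID 15186) encodes histidine decarboxylase, the enzyme that forms histamine. It had 244, 207 and 229 normalized reads in wild-type and 107, 120 and 144 in Npffr1-KO. The groups were well apart, and even Npffr1-KO library 3 stood at 63.5% of the wild-type mean. The mean was 227 ± 19.0 (SD, n = 3) in wild-type and 124 ± 18.8 (SD, n = 3) in Npffr1-KO, a log2 difference of -0.88 ± 0.17 (SE). Its adjusted p of 0.056 was the lowest among the mast cell genes.

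*Gata2* (GeneID 14461) encodes a zinc finger transcription factor of blood progenitors, mast cells and endothelial cells. It had 724, 815 and 788 normalized reads in wild-type and 543, 547 and 588 in Npffr1-KO. All Npffr1-KO libraries were at 70.0% to 75.8% of the wild-type mean, a narrower spread than that of the proteases. The log2 difference was -0.47 ± 0.10 (SE), with an adjusted p of 0.0696.

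Over the 9 tested genes the median log2 difference was -0.60, beside -0.005 over all genes tested. All 9 differences were below 0, as were 7155 of those of the 14106 genes tested. The 9 genes share their libraries and are not independent results. As the samples are whole tissue, fewer mast cells and less RNA of these genes per mast cell cannot be told apart.

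**Figure D2:**
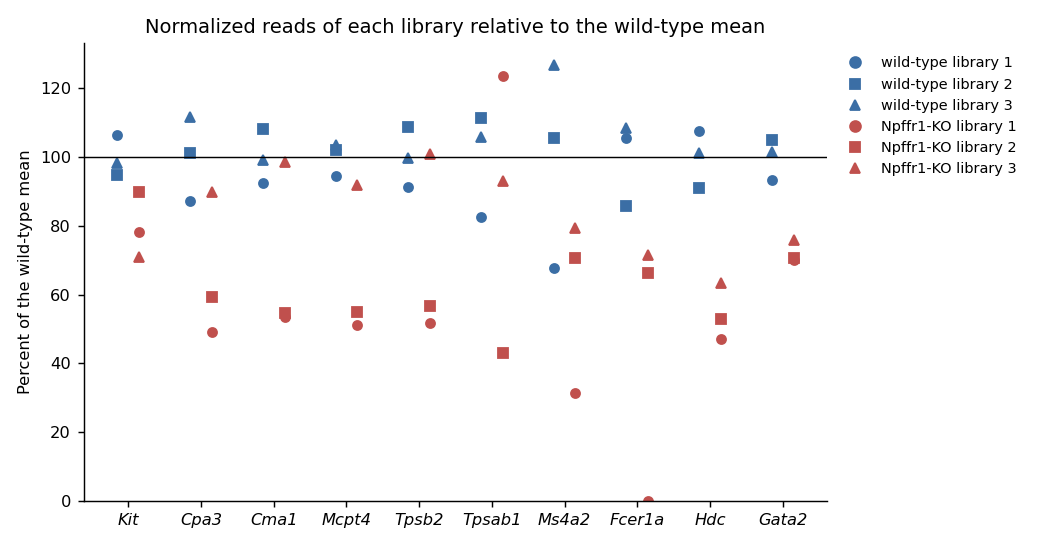
Normalized reads of each library as a percent of the wild-type mean of the same gene (y axis), for the 10 mast cell genes (x axis), in wild-type (blue) and Npffr1-KO (red) libraries. Npffr1-KO libraries 1 and 2 sit between 49.2% and 59.2% for *Cpa3*, *Cma1*, *Mcpt4* and *Tpsb2*, and Npffr1-KO library 3 between 89.8% and 101%.

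The 4 abundant proteases thus set Npffr1-KO library 3 apart from the other two. Summed over *Cpa3*, *Cma1*, *Mcpt4* and *Tpsb2*, the wild-type libraries had 6689, 7728 and 7456 normalized reads and the Npffr1-KO libraries 3775, 4088 and 7024. Relative to *Kit* in the same library, this sum was 4.60, 5.96 and 5.55 in wild-type and 3.53, 3.33 and 7.26 in Npffr1-KO. *Hdc* relative to *Kit* was 0.168, 0.159 and 0.171 in wild-type and 0.10, 0.0979 and 0.149 in Npffr1-KO. It was lower in each Npffr1-KO library than in each wild-type library, but how often this held for other genes relative to *Kit* was not counted. *Gata2* relative to *Kit* overlapped between the groups, at 0.498 to 0.628 in wild-type and 0.446 to 0.608 in Npffr1-KO. These ratios set transcripts of unlike length against each other. In Npffr1-KO library 3 the median log2 level of genes as long as *Kit* was -0.22 relative to the wild-type mean. For genes as long as *Cma1*, *Mcpt4* and *Tpsb2* it was 0.40, for those as long as *Cpa3* 0.23 and for those as long as *Hdc* 0.02. The part of length in the ratios was not tested.

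Without Npffr1-KO library 3, which was singled out after its values were seen, 5 of the 9 genes passed the threshold, all lower in Npffr1-KO, where 0.298% of all genes tested were called lower. The log2 differences of *Cma1*, *Mcpt4*, *Tpsb2* and *Cpa3* were then -0.88 ± 0.09, -0.91 ± 0.09, -0.88 ± 0.10 and -0.88 ± 0.13 (SE), with adjusted p of 0.00598, 0.00598, 0.00853 and 0.028 by limma. *Hdc* was at -0.99 ± 0.17 (SE), with an adjusted p of 0.0405. *Gata2*, at -0.51 ± 0.10 (SE) and an adjusted p of 0.0651, and *Kit*, at -0.25 ± 0.10 (SE) and an adjusted p of 0.227, did not pass. Without any single one of the other 5 libraries, none of the 9 genes passed.

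Gene length moved with the same library. The proteases have short transcripts, of 990 to 1458 bases in the deposited table. Among all tested genes of like length to *Cma1*, *Mcpt4* and *Tpsb2* (1 of 20 classes of length), the median log2 level relative to the wild-type mean was 0.13, 0.03 and 0.40 in Npffr1-KO libraries 1 to 3, against -0.05 to 0.05 in the wild-type libraries. For the class of *Kit*, whose transcript has 5194 bases, it was -0.09, -0.03 and -0.22 in the Npffr1-KO libraries. With each library centred on the genes of like length, an alternative added after the data were seen, *Cma1* in Npffr1-KO libraries 1 to 3 lay at -1.04, -0.90 and -0.41 relative to the wild-type mean on the log2 scale, and *Tpsb2* at -1.08, -0.84 and -0.38. All 3 values were then below the lowest wild-type library, as in 7 of the 9 genes and in 11.2% of all genes tested.

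In this length-centred fit 3 of the 9 genes passed the threshold, all lower in Npffr1-KO, where 0.376% of all genes tested were called lower. *Mcpt4* was lower by a log2 difference of -0.84 ± 0.14 (SE), with an adjusted p of 0.0358 by limma, *Hdc* by -0.90 ± 0.17 with 0.0448, and *Cma1* by -0.78 ± 0.15 with 0.0467. *Tpsb2*, at -0.77 ± 0.16 and an adjusted p of 0.0578, and *Cpa3*, at -0.75 ± 0.17 and 0.065, did not pass. The difference of *Kit* became smaller, -0.22 ± 0.09 with an adjusted p of 0.249. The differences given below for genes of other lists are not centred in this way. Those of short or long genes can include such a shift.

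**Figure D3:**
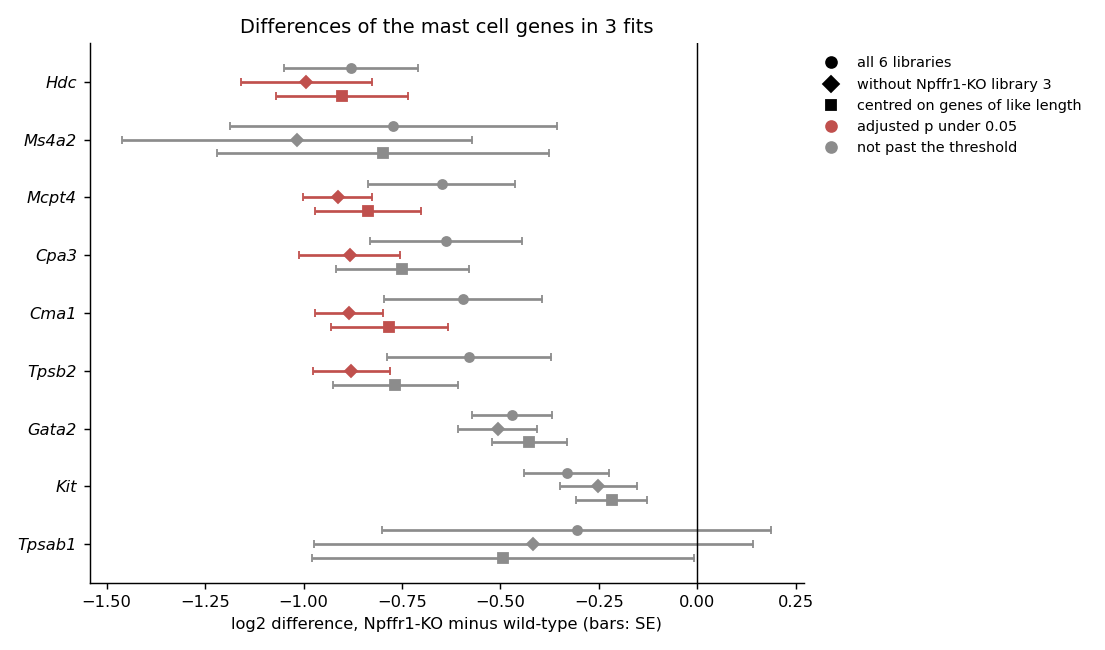
Log2 difference between Npffr1-KO and wild-type (x axis, bars SE) of the 9 tested mast cell genes (y axis) with all 6 libraries, without Npffr1-KO library 3 and with each library centred on genes of like length. Red marks an adjusted p under 0.05: none with all 6 libraries, 5 without that library and 3 after centring.

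The order of the levels was set in wild-type, per kilobase of the listed length. *Cma1* was the highest, with 2321 ± 183 (SD, n = 3) normalized reads per kilobase, followed by *Tpsb2* with 1832 ± 162, *Mcpt4* with 1587 ± 76.0 and *Cpa3* with 821 ± 101. Each of these lay above the next in all 3 libraries. *Kit* with 263 ± 15.8 and *Gata2* with 238 ± 14.2 overlapped, *Hdc* stood at 93.9 ± 7.87, and *Ms4a2* and *Tpsab1* overlapped at 15.2 ± 4.54 and 12.9 ± 1.98. *Fcer1a* was the lowest, at 4.45 ± 0.555. By the authors' value per kilobase in wild-type, *Cma1* was above 96.3% of all listed genes and *Fcer1a* above 19.4%. The genes of the FcεRI α and β chains lay below all 4 abundant proteases in every wild-type library.

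Over the 6 libraries the 4 abundant proteases followed each other closely. Pearson's r between log2 levels was 0.997 for *Cma1* and *Tpsb2*, 0.989 for *Cma1* and *Mcpt4* and 0.981 for *Cpa3* and *Mcpt4*, while *Tpsab1* had an r of 0.274 to 0.405 with these 4. *Hdc* and *Gata2* had an r of 0.929, *Kit* and *Hdc* one of 0.755, and *Kit* and *Cma1* one of 0.280. These describe 6 points that share their genotype and library. The levels were not centred on genes of like length. *Cma1*, *Mcpt4* and *Tpsb2* share a length class, whose median was 0.40 in Npffr1-KO library 3, against -0.22 for that of *Kit*. The part of length in the r was not tested. Other genes with a profile most like the mean of the mast cell genes, out of 12379 with a mean of at least 20, included *Tekt2* (r = 0.997), *Epha5* (r = 0.990), *Mospd1* (r = 0.989) and *Zfp606* (r = 0.980).

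Further genes of mast cells were taken from 8 lists, beginning with the granule. Of 8 tested other granule serine proteases none passed the threshold. The 3 highest were *Prss34* and *Mcpt8*, proteases of basophils, and *Gzmb*, granzyme B of cytotoxic cells and basophils. *Prss34* had 58.9, 69.5 and 51.6 normalized reads in wild-type and 35.7, 13.1 and 30.6 in Npffr1-KO, where the groups did not overlap, and its log2 difference was -1.27 ± 0.38 (SE) with an adjusted p of 0.128. *Gzmb* was at -0.50 ± 0.34 (SE), and *Mcpt8* at -0.84 ± 0.62 (SE). The mucosal mast cell proteases *Mcpt1* and *Mcpt2* had more reads in Npffr1-KO, without passing the threshold. *Mcpt1* had 2, 0 and 0 reads in wild-type and 11, 16 and 6 in Npffr1-KO, with an adjusted p of 0.0923. Every Npffr1-KO library lay above every wild-type one, as in 1673 of the 14106 genes tested. *Mcpt2* had 6, 0 and 0 reads in wild-type and 19, 6 and 4 in Npffr1-KO, with an adjusted p of 0.22.

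None of the 5 tested genes of amine synthesis, storage and breakdown passed. *Slc18a2*, which encodes the vesicular transporter that loads histamine into granules, had 139, 193 and 166 normalized reads in wild-type and 105, 103 and 115 in Npffr1-KO, all of them below the wild-type libraries, with a log2 difference of -0.61 ± 0.18 (SE) and an adjusted p of 0.125. The histamine-degrading methyltransferase *Hnmt* was at -0.10 ± 0.20 (SE) and the amine oxidase gene *Maob* at 0.07 ± 0.14 (SE). Of the 5 tested genes of the granule proteoglycan and heparin none passed either. The reads of *Srgn*, which encodes the granule proteoglycan serglycin of many leukocytes, were not recovered, and the deposited values were 3325 for wild-type and 3938 for Npffr1-KO. The heparan sulfate polymerase gene *Ext1* was at 0.06 ± 0.12 (SE). *Ndst1* was at -0.48 ± 0.15 (SE) and *Ndst2*, which is needed for mast cell heparin, at -0.39 ± 0.10 (SE), with adjusted p of 0.138 and 0.0935. *Ndst2* was named after its values were seen.

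Among 10 tested genes of the IgE receptor and its signalling 1 rose, *Lat*, which encodes an adaptor of T cells and mast cells. Of all genes tested 0.291% were called higher, and the median log2 difference of the 10 was 0.05. *Lat* was thus no sign of the list as a whole. This gene had 754, 759 and 1016 normalized reads in wild-type and 1483, 1287 and 1303 in Npffr1-KO, a log2 difference of 0.70 ± 0.13 (SE) with an adjusted p of 0.0498. The T cell gene *Cd3e* rose as well, with 553, 631 and 704 normalized reads in wild-type and 1064, 1014 and 890 in Npffr1-KO, a log2 difference of 0.65 ± 0.12 (SE) and an adjusted p of 0.0483. Both adjusted p lay just under the threshold. *Lat* and *Cd3e* have short transcripts, of 1281 and 1436 bases, as do the proteases, whose length classes were higher in Npffr1-KO library 3. Their values in the length-centred fit were not read out, so the part of length in their rise is not given. *Fcer1g*, which encodes the γ chain that FcεRI shares with other receptors and was named after its values were seen, was at 0.15 ± 0.13 (SE).

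Of 11 tested surface receptors of mast cells none passed, and 4 had all Npffr1-KO libraries below all wild-type libraries, as did 12.6% of all genes tested. The 3 highest were shared with other leukocytes: *Csf2rb*, the common β chain gene, had deposited values of 5265 in wild-type and 4300 in Npffr1-KO, *Il3ra* was at 0.10 ± 0.10 (SE) and *C3ar1* at 0.07 ± 0.15 (SE). The following were named after their values were seen. *Mrgprb2*, the receptor for basic secretagogues on connective tissue mast cells, had 104, 156 and 99.2 normalized reads in wild-type and 59.8, 65.6 and 100 in Npffr1-KO, with Npffr1-KO library 3 again within the wild-type range. Its neighbour in name, *Mrgprb1*, had 94.6, 109 and 76.4 in wild-type and 55.9, 72.7 and 56.7 in Npffr1-KO. *Il1rl1*, which encodes the IL-33 receptor ST2, had 319, 347 and 314 normalized reads in wild-type and 190, 240 and 231 in Npffr1-KO, a log2 difference of -0.57 ± 0.14 (SE) with an adjusted p of 0.0895. Its transcript, of 5308 bases, is about as long as that of *Kit*, whose length class was lower in the Npffr1-KO libraries. Its value in the length-centred fit was not read out, so the part of length is not given.

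Of 9 tested mast cell transcription factors none passed. In *Stat5a* and *Spi1* all Npffr1-KO libraries lay above all wild-type libraries, and in *Mitf* all lay below. Of the 14106 genes tested, 1673 had all Npffr1-KO libraries above and 1781 had all below. *Stat5a* was at 0.17 ± 0.09 (SE) and *Stat5b* at -0.03 ± 0.09 (SE), and *Cebpa*, a factor of adipocytes as well, had deposited values of 12682 in wild-type and 12629 in Npffr1-KO. *Spi1*, which encodes the myeloid factor PU.1, was at 0.32 ± 0.11 (SE) with an adjusted p of 0.16. *Mitf*, a regulator of mast cell and melanocyte genes that like *Spi1* was named after its values were seen, had 259, 282 and 251 normalized reads in wild-type and 181, 198 and 174 in Npffr1-KO. It had a log2 difference of -0.52 ± 0.14 (SE) with an adjusted p of 0.102. Of the 7 tested genes of eicosanoid synthesis none passed, and the 3 highest, *Ltc4s*, *Alox5ap* and *Ptgs1*, were at -0.18 ± 0.17, 0.25 ± 0.14 and -0.17 ± 0.15 (SE). Of the 6 tested growth factors and cytokines none passed. *Kitl*, which encodes stem cell factor, was at -0.28 ± 0.10 (SE) with an adjusted p of 0.19, *Il33* at 0.05 ± 0.28 (SE) and *Tslp* at -0.10 ± 0.25 (SE), and *Il3* and *Il9* were not listed.

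**Figure D4:**
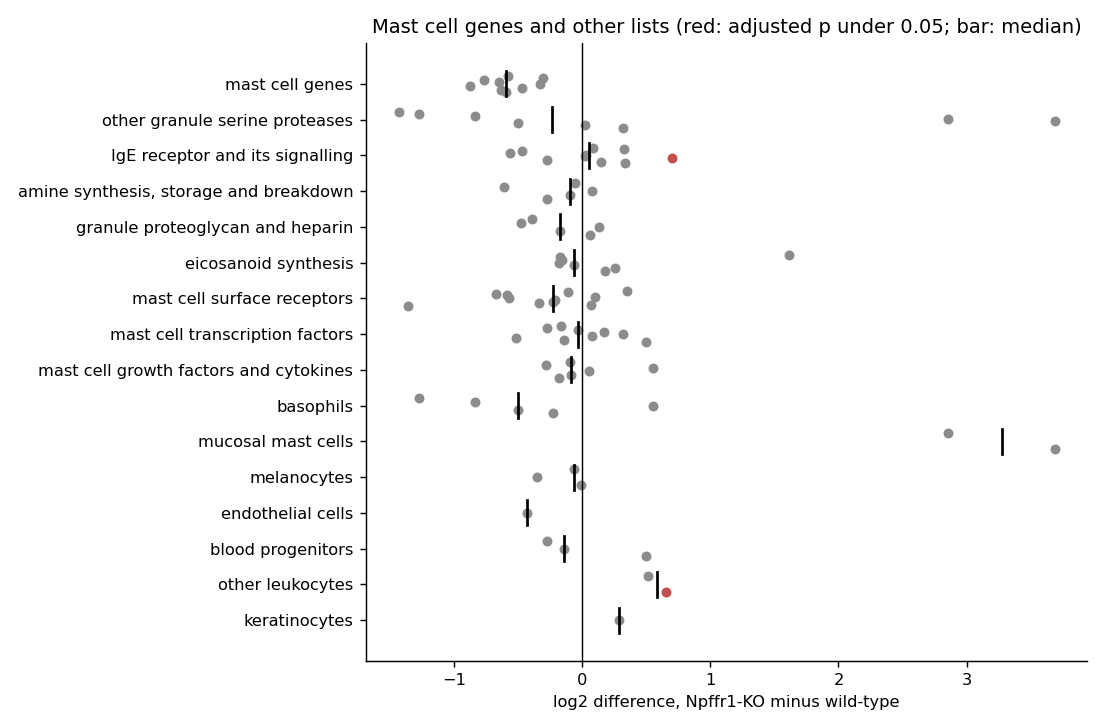
Log2 difference between Npffr1-KO and wild-type (x axis) of every tested gene of the mast cell genes and the other lists (y axis), with the median of each list as a black bar and genes with an adjusted p under 0.05 in red. All 9 mast cell genes lie below 0 with a median of -0.60, where 7155 of all 14106 genes tested lie below 0. The 2 red points are *Lat* and *Cd3e*.

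Other cells that carry some of these genes were read from their own markers. The 5 basophil markers added up to 144 to 151 normalized reads in wild-type and 91.7 to 103 in Npffr1-KO, and none of them passed. Only *Prss34* had all Npffr1-KO libraries below all wild-type libraries, as did 12.6% of all genes tested. The log2 differences of 4 of the 5 were below 0. *Il4*, named after its values were seen, was at 0.55 ± 0.90 (SE) with 30 reads in all. Of the melanocyte markers, *Tyr* was at -0.07 ± 0.20 (SE), *Pmel* at -0.35 ± 0.23 (SE) and *Dct* at -0.01 ± 0.79 (SE), while *Mlana* and *Tyrp1* had means of 1.77 and 4.28 normalized reads. The 5 added up to 210 to 267 in wild-type and 191 to 248 in Npffr1-KO. Of the endothelial genes, which share *Kit* and *Gata2* in part, *Tek* was at -0.43 ± 0.13 (SE) with an adjusted p of 0.123, and the deposited values in wild-type and Npffr1-KO were 23029 and 17863 for *Cdh5*, 18487 and 15218 for *Pecam1* and 7247 and 5449 for *Kdr*.

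Among markers of blood progenitors, *Lmo2* was at -0.14 ± 0.10 (SE) and *Tal1* at -0.28 ± 0.14 (SE), *Gata1* had 36.8 ± 13.2 (SD, n = 3) normalized reads in wild-type and 50.2 ± 6.92 (SD, n = 3) in Npffr1-KO, and *Cd34* had deposited values of 9258 and 8323. Of the other leukocyte markers, *Cd68* and *Cd3e* added up to 1436 to 1913 normalized reads in wild-type and 2351 to 2444 in Npffr1-KO. The macrophage gene *Cd68*, at 0.51 ± 0.13 (SE) with an adjusted p of 0.0891, had all Npffr1-KO libraries above the wild-type ones. This held for 1673 of the 14106 genes tested. The keratinocyte genes *Krt5* and *Krt14*, read as a sign of skin, added up to 16.9 normalized reads in wild-type library 3, to 30.8 in Npffr1-KO library 1 and to at most 1.09 in the other 4. The basophil sum, with *Prss34* as its only marker apart, and the endothelial and leukocyte values move with the genotype as the mast cell genes do or in the opposite direction. Their part in the differences was not tested.

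Promoters were read from RefSeq (GRCm38.p6, 250 bases before to 50 after a start) because GATA2 and MITF bind known short words. Of the 10 genes 8 matched, with 10 promoters. Both strands were searched for AGATAA and TGATAA, words bound by GATA factors, and for CACGTG and CATGTG, words bound by MITF. A GATA word was found in 4 of the 10 promoters, each of a different gene, and 18.6% of all 32851 promoters hold one. An MITF word was found in 1 of the 10, that of *Fcer1a*, and 20.4% of all promoters hold one. The stretches with a GATA word of *Cpa3* and *Mcpt4*, 2 proteases of the granule, and of *Fcer1a* and *Ms4a2*, the genes of the receptor chains (for *Ms4a2* 1 of 3 such words, the others lying 11 and 224 bases before the start), are shown on the strand of the gene, with the word in capitals (TTATCT is AGATAA on the opposite strand).
Cpa3, chr3:20242210-20242239, minus strand, 46 bases before the start: agctgttcgtcgAGATAAaagctgaggtat
Mcpt4, chr14:56062396-56062425, minus strand, 103 bases before the start: catgagaatttcTGATAAggaaagtagagc
Fcer1a, chr1:173227304-173227333, minus strand, 92 bases before the start: acaaccctattaTTATCTctggagaaagcc
Ms4a2, chr19:11623739-11623768, minus strand, 37 bases before the start: cagcctggagacTTATCTgacaagtaggtt
The longest extent of *Ms4a2* in RefSeq begins before the start used here and includes this word.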

How the data were processed

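RNA of whole iAT from 3 wild-type and 3 Npffr1-KO samples at postnatal day 6 was sequenced, with the groups as the labels give them. The submitters' processing notes name Bowtie2, RSEM and DESeq2, without versions. The genome build is not given in the sources used here. The authors deposited a signal, normalized read counts, as 1 value per gene and genotype for 19831 genes, with the gene length in bases. Columns with the authors' fold changes and p-values, and a second table that repeats part of the first, were not used.

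The mean of the 2 genotype values is the mean of the normalized reads over the 6 libraries, and genes with 1 read in all fall on 6 values, which give the size factors and the genotype of each library. Whole reads were searched for genes with a mean of up to 3000 that meet this mean to the 15 digits printed. The combination was kept whose ratio between the genotypes, shrunk by a negative binomial model with parameters fitted to the table, met the ratio of the deposited values, or which was the only one. The search was checked on genes simulated with known reads under the same model. Between 2500 and 3000 the share recovered was 94.2%, under the 95% required, so the test was limited to means from 5 to 2500.

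The test was limma (3.58.1, R 4.3.3) with a variance trend, checked on simulated reads. The 10 genes and the other 16 lists were chosen with earlier results of these data known. All 10 genes are named, and of the other lists each gene past the threshold, otherwise the 3 highest, and further names are marked as chosen afterwards. Alternatives were other pseudocounts and filters, no variance trend, voom weights, other centring and leaving out each library. With 3 libraries a group, precision is limited by the spread between libraries and, for genes with few reads, by their number. Of the 5 genes with the most similar profile, 1 is not reported here.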

Additional observations from a re-analysis of the deposited data

How the results depend on the processing

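No paired analysis was possible because the recovered libraries could not be tied to the replicate numbers of the labels. With all 6 libraries, 0 of the mast cell genes tested passed the threshold, and this held with pseudocounts of 0.1 and 2, without a minimum mean, with a minimum of 20, with all recovered genes, with no trend, with voom weights and with centring on the median gene. With centring on genes of like length, added after the data were seen, the number was 3. Leaving out 1 library gave 0 to 5 genes, and a median log2 difference between -0.45 and -0.88 in place of -0.60. The number of 5 and the median of -0.88 were reached without Npffr1-KO library 3. *Tpsab1* ranged from -0.61 to 0.11 and was reversed without Npffr1-KO library 2. Without division by length *Kit* came before *Cpa3* in the order of wild-type levels, and the other 8 places were kept. Of all genes, 80 passed, and 4 did with no trend. The number was 105 with centring on genes of like length, and leaving out 1 library gave 13 to 393, the latter without Npffr1-KO library 2; the cause was not tested. Direction was kept by the other 8 tested mast cell genes under every alternative run. *Fcer1a*, with 20 reads in all, entered only the fit without a minimum mean.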
